A study of Rattus norvegicus with 18 samples.

Results

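A set of 10 genes of the NF-kB inflammatory programme was followed across the kidney transcriptomes of the series. It holds the chemokine genes Ccl2 (ENSMUSG00000035385), Cxcl1 (ENSMUSG00000029380), Cxcl10 (ENSMUSG00000034855) and Cx3cl1 (ENSMUSG00000031778), the growth factor gene Csf1 (ENSMUSG00000014599) and the adhesion gene Icam1 (ENSMUSG00000037405). The inhibitor genes are Nfkbia (ENSMUSG00000021025) and Tnfaip3 (ENSMUSG00000019850), and the subunit genes are Relb (ENSMUSG00000002983) and Nfkb2 (ENSMUSG00000025225). They were taken by name and mouse Ensembl identifier and not by a cut on a measured value, but with earlier results of these data known. All 10 of 10 were found among the 55335 identifiers of the deposited count table. All 10 passed the filter on low counts, which kept 19233 identifiers. Polyadenylated kidney RNA was sequenced as 18 libraries, 6 per group, from animals that the labels call Rattus norvegicus. Control animals (Ctrl) ate ordinary feed and were gavaged with solvent. Diabetic nephropathy model animals (DN) had a high-fat diet plus an injection of STZ (streptozotocin, a compound toxic to pancreatic beta cells). Treated animals (Treat) were DN animals given TSK, a preparation named only by this abbreviation, orally at 500 mg/kg each day for 4 weeks. The sources used here do not give strain, sex, age or whether DN animals were gavaged with solvent. The count table carries mouse identifiers and the submitters' processing notes name mouse builds (GRCm38, mm10), neither of which matches the labelled species, so levels of different genes are not compared with each other.

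NF-kB is a family of dimeric transcription factors held inactive in the cytoplasm by inhibitor proteins. In the classical branch, signals from cytokine and Toll-like receptors lead to the destruction of the inhibitor encoded by Nfkbia, and freed dimers enter the nucleus and switch on cytokines, chemokines and adhesion molecules. In the alternative branch, the precursor protein encoded by Nfkb2 is cut to a mature subunit that pairs with RelB. Nfkbia and Tnfaip3 are themselves target genes and form negative feedback. In the kidney, tubule, endothelial and immune cells can all run this programme, and the chemokines it yields draw monocytes, neutrophils and T cells into the tissue.

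NF-kB dimers bind short DNA elements called kB sites, and promoter stretches are shown here for the genes in which such an element was found, because it was found both in genes that rose in DN and in genes that were not called. RefSeq rat promoters (build GRCr8, 250 bases before to 50 after the annotated gene start) were at hand for 7 of the 10 genes: Cxcl1, Cxcl10, Cx3cl1, Icam1, Nfkbia, Tnfaip3 and Nfkb2. A kB consensus (GGG, a purine, any base, 3 pyrimidines and CC, searched on both strands) matched in 5 of these 7, with 6 matches in all, and 5.02% of the 33469 promoters of this length in the table held a match. A run in Cxcl10 that misses this pattern only by an A in place of the first pyrimidine is left in lower case. Capitals mark the kB matches and, in Cxcl10 alone of these 7, a match to the core of the interferon-stimulated response element (GAAA, any 2 bases and GAAA, both strands, not overlapping the kB match), which 3.92% of all promoters held. Each stretch reads 5′ to 3′ on the strand of the gene and ends before the annotated start.
Cxcl1 (chr14:17479371-17479430, minus strand): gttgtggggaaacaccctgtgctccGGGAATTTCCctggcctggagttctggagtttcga
Cxcl10 (chr14:15988816-15988972, plus strand): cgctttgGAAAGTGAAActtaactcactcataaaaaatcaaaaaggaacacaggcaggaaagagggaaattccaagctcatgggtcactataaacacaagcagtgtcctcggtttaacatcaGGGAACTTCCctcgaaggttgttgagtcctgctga
Nfkb2 (chr1:255108329-255108373, plus strand): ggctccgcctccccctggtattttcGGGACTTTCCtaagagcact
Nfkbia (chr6:78597073-78597128, minus strand): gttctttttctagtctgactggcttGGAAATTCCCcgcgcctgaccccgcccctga
Tnfaip3 (chr1:15544000-15544071, minus strand): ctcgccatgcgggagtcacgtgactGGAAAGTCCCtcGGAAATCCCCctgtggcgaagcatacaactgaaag

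The match in Cxcl1 began 84 bases before the annotated start, that in Cxcl10 128 bases, that in Nfkb2 20 bases and that in Nfkbia 31 bases before it. Tnfaip3 held a pair of matches, beginning 67 and 55 bases before the start. No match lay in the windows of Cx3cl1 and Icam1, which says only that these letters are not in those windows. A match is a description of the letters and not evidence of binding, and these windows come from the rat genome while the counts were made on mouse builds.

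**Figure D1:**
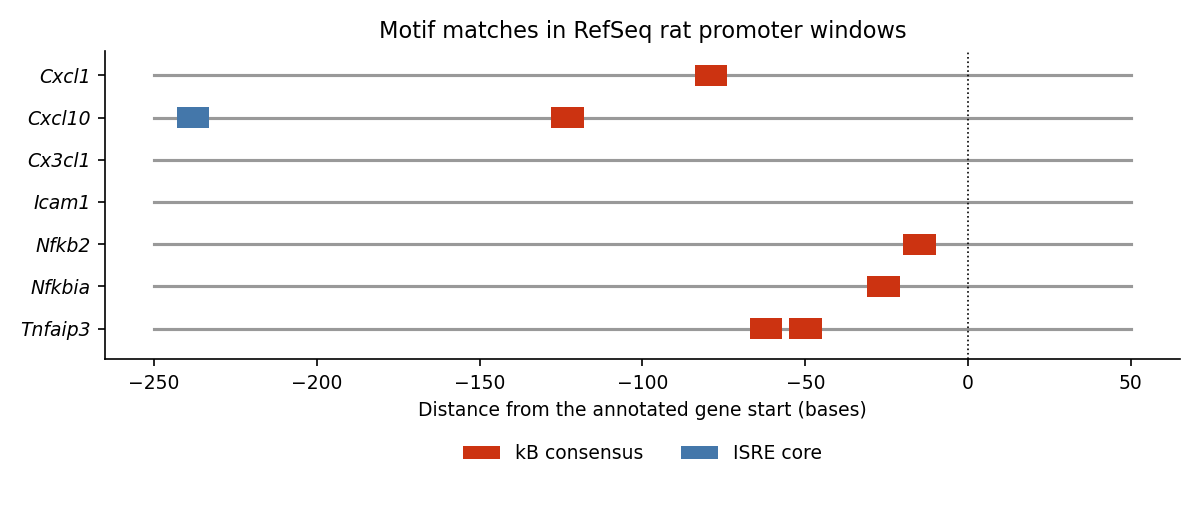
Motif matches along the RefSeq rat promoter windows of the 7 genes with an entry; the x axis is the distance from the annotated gene start in bases, the grey line is the window from 250 bases before to 50 bases after the start, red boxes are kB consensus matches and the blue box is the response element core. The 6 red boxes lie within 128 bases upstream of the start in 5 genes, and Cx3cl1 and Icam1 have none.

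Libraries held 22040987 to 35275498 counts, and a level of 1 CPM, the unit that scales counts to a common library total, stood for at least 22 counts before TMM scaling. Levels below are CPM on TMM-scaled totals, and a gene was called when its Benjamini-Hochberg adjusted p in edgeR's quasi-likelihood test, fitted over all 19233 genes, was under 0.05. Where nothing says otherwise, levels of a group are listed as its lowest, median and highest library. Each group has n = 6 libraries, 1 per animal as the design text has it. Control library 4 and treated library 1 had the lowest mean correlations with the other libraries of their groups (0.961 and 0.947, against 0.964 to 0.977 in the remaining 16). For 6 identifiers the other 5 controls stood more than 10-fold away from all remaining libraries, with control library 4 on the side of DN and Treat, against 0 or 1 identifiers when another control took its place. In all 8 genes that rose in DN, control library 4 lay nearer in log2 level to the mean of the other controls than to DN's. The 8 were called with this library among the controls, so the nearness was largely fixed by that choice. Diet and STZ cannot be told apart from any other difference between the controls and the remaining animals.

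The first comparison, DN with Ctrl, addresses the difference between diabetic model and control kidneys. Of the 10 genes, 8 rose in DN, 0 fell and 2 were not called, where 16.9% of all genes tested were called higher and 15.3% lower. All 4 chemokine genes, Csf1, Icam1, Relb and Nfkb2 rose, by 1.40-fold for Cx3cl1 to 15.4-fold for Cxcl1. The genes not called were both inhibitor genes, Nfkbia and Tnfaip3. Of the 8, 5 rose at least 2-fold, a size that 5.27% of all genes reached with a call, and for 7 of the 8 every DN library lay above every control library, as for 8.34% of all genes. The median log2 fold change was 1.08 over the 10 genes and 0.01 over all genes tested. Since the genes were chosen with earlier results of these data known, the values over all genes give a scale and no test.

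Cxcl1, a neutrophil attractant that signals through CXCR2, stood at 0.256, 0.607 and 0.800 CPM in the controls (lowest, median and highest library) and at 5.73, 9.40 and 11.8 CPM in DN. Its control libraries held 7 to 25 counts each and its DN libraries 162 to 382, and the groups lay far apart. Its log2 fold change was 3.94 (SE 0.26, edgeR adjusted p = 2.39e-08), and 0.723% of all genes tested had a larger one.

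Ccl2, the main attractant of CCR2-bearing monocytes, ranged from 0.0728 to 0.659 CPM in the controls with a median of 0.424, and from 3.39 to 4.77 CPM in DN with a median of 3.92. The DN libraries were close together (coefficient of variation 11.6%), while the controls rested on 2 to 18 counts per library, with control library 4 lowest. For Ccl2 the log2 fold change was 3.29 (SE 0.33, edgeR adjusted p = 1.22e-06).

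Cxcl10, a ligand of CXCR3 on T cells that interferons induce as well as NF-kB, stood at 1.57, 2.76 and 3.37 CPM in the controls and at 14.8, 17.1 and 21.3 CPM in DN. No DN library came near the highest control, and the fitted log2 fold change was 2.75 (SE 0.20, edgeR adjusted p = 4.55e-08).

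Cx3cl1 encodes fractalkine, a membrane-bound chemokine whose receptor sits on monocytes and macrophages. It had the smallest rise of the 8, from 22.9, 27.8 and 30.8 CPM in the controls to 29.6, 35.6 and 50.1 CPM in DN. All but 1 of the 6 DN libraries lay above the highest control, and the groups overlapped only by DN library 5. The log2 fold change was 0.48 (SE 0.14, edgeR adjusted p = 0.0118).

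**Figure D2:**
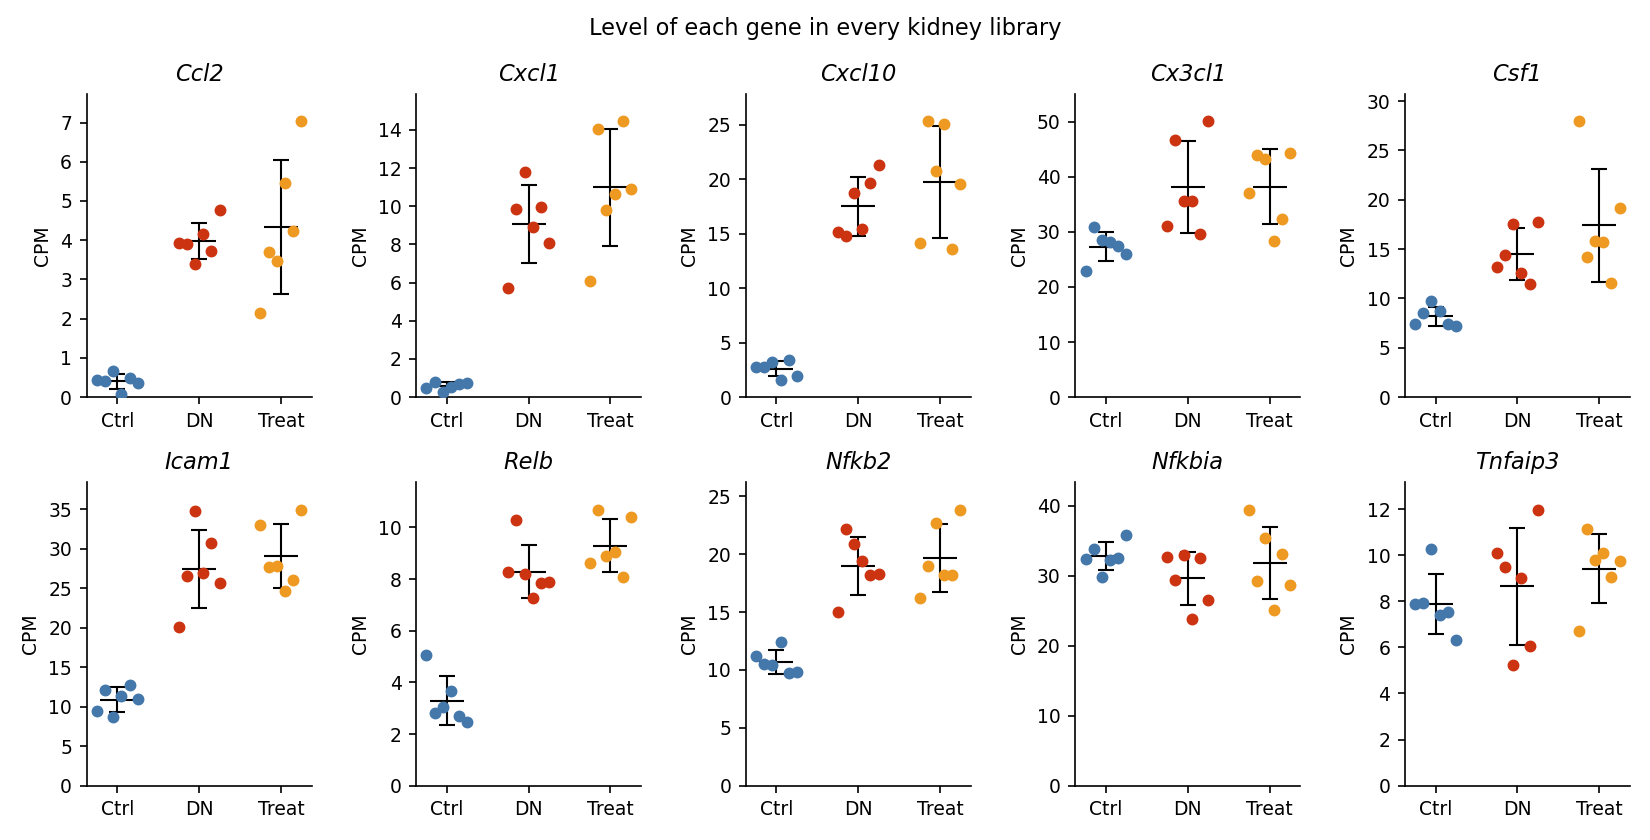
Level of each of the 10 genes in CPM (y axis, from 0, own scale per gene) in the 6 libraries of Ctrl (blue), DN (red) and Treat (orange); points are libraries in the order of their replicate numbers and black bars give the mean ± SD. Cxcl1, Ccl2 and Cxcl10 are near the floor in Ctrl and lie far above it in DN and Treat, while Nfkbia and Tnfaip3 overlap in all groups.

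Csf1, the growth factor that keeps macrophages alive and proliferating through CSF1R, stood at 7.26, 8.0 and 9.74 CPM in the controls and at 11.5, 13.8 and 17.7 CPM in DN. The groups did not overlap, and the log2 fold change was 0.82 (SE 0.17, edgeR adjusted p = 0.00154).

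Icam1 encodes the endothelial and epithelial adhesion molecule that leukocyte integrins grip. It ran from 8.68 to 12.8 CPM in the controls (median 11.1) and from 20.1 to 34.7 CPM in DN (median 26.8). Every DN library exceeded the highest control by a wide gap, with DN library 1 lowest. Its log2 fold change was 1.33 (SE 0.13, edgeR adjusted p = 7.03e-07).

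Of the subunit genes, Relb stood at 2.45, 2.93 and 5.04 CPM in the controls and at 7.26, 8.04 and 10.3 CPM in DN. Control library 1 was the highest control and still lay below all DN libraries. Its log2 fold change was 1.33 (SE 0.16, edgeR adjusted p = 5.47e-06). Nfkb2, which encodes the partner of RelB in the alternative branch, went from 9.77, 10.4 and 12.4 CPM to 15.0, 18.9 and 22.2 CPM. Control library 4 was the highest control and DN library 1 the lowest DN library, and the groups were separate. The log2 fold change of Nfkb2 was 0.83 (SE 0.11, edgeR adjusted p = 1.76e-05).

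The inhibitor genes were not called. Nfkbia, whose product holds classical dimers in the cytoplasm, stood at 29.8, 32.5 and 35.8 CPM in the controls and at 23.9, 30.9 and 33.0 CPM in DN. The DN libraries overlapped the control range and extended below it. The log2 fold change was -0.15 with a 95% interval of -0.36 to 0.07 (edgeR adjusted p = 0.291), so that a rise of the size seen in Nfkb2 lay outside the interval. Tnfaip3 encodes A20, a ubiquitin-editing enzyme that shuts off signalling upstream of NF-kB. It ran from 6.30 to 10.2 CPM in the controls and from 5.25 to 12 CPM in DN, the DN libraries reaching both below and above the controls. The log2 fold change was 0.13 with an interval of -0.24 to 0.51 (edgeR adjusted p = 0.596), so that a rise of the size seen in Cx3cl1 lay inside the interval. With limma voom and quality weights Nfkbia had -0.20 (limma unadjusted p = 0.0492, adjusted p = 0.105) and was not called either.

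The rising genes were also set against the inhibitors within each library, as the difference between groups in the mean log2 ratio of the pair. The genes on each side of these ratios are those called and not called in the same libraries, so the differences are a description and carry no test. Relative to Nfkbia, they ran from 0.61 (log2) for Cx3cl1 to 4.00 for Cxcl1, DN minus Ctrl. Relative to Tnfaip3, they ran from 0.37 for Cx3cl1 to 3.76 for Cxcl1. For Cx3cl1 the DN and control libraries overlapped in both ratios, and for Nfkb2 they overlapped in the ratio to Tnfaip3. Icam1, for example, stood higher by 1.48 relative to Nfkbia and by 1.23 relative to Tnfaip3. Since these are bulk libraries, more cells that make a transcript and more transcript per cell cannot be told apart, for these genes and those below. Markers of leukocytes and of other kidney cells were not looked up here, and the part of such cells in these rises was not tested.

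**Figure D3:**
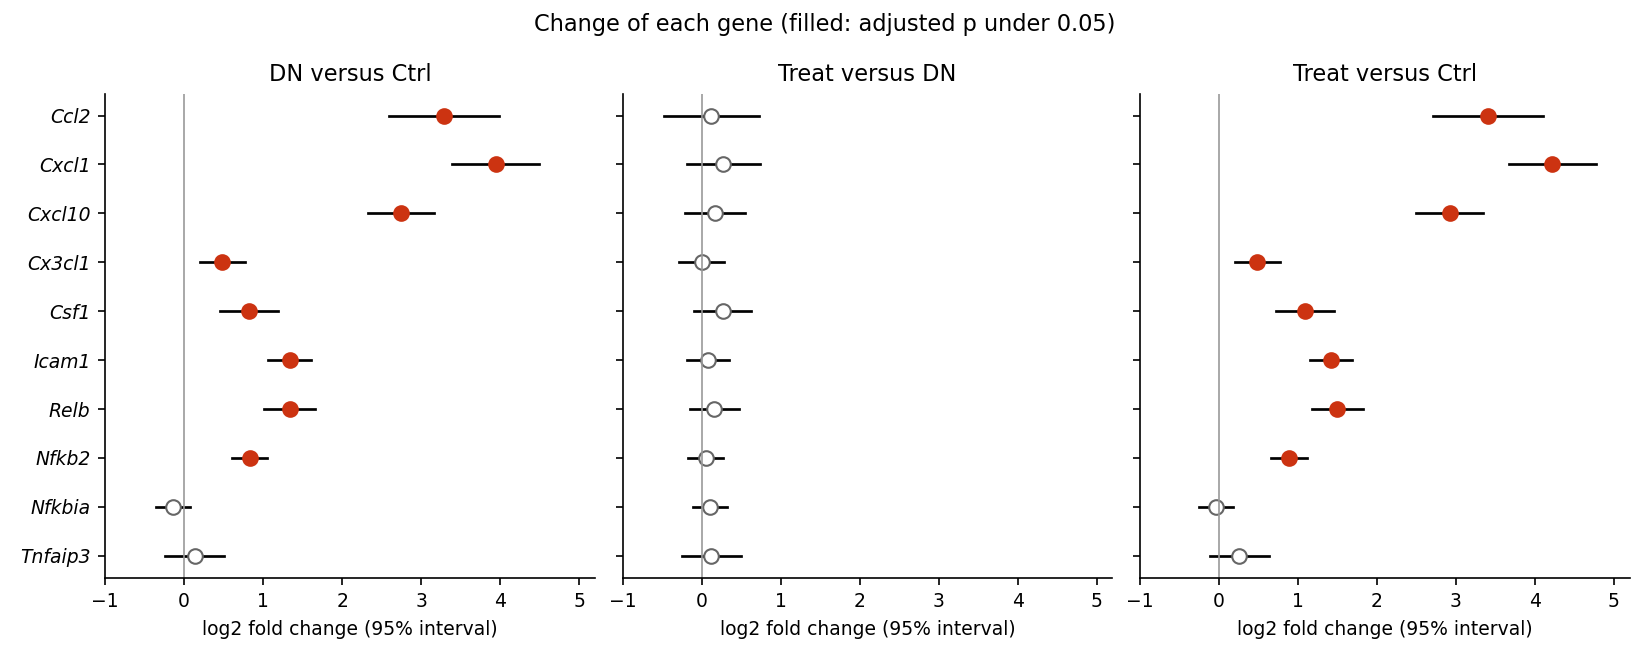
Log2 fold change of each gene (x axis) with its 95% interval in the 3 comparisons; filled points have an edgeR adjusted p under 0.05. In the left and right panels 8 points are filled and lie above 0, and in Treat versus DN no point is filled.

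The second comparison, Treat with DN, addresses how treated and untreated model kidneys differed. None of the 10 genes was called, where 0.536% of all genes tested were called higher and 0.858% lower. These shares moved with the processing: the 268 calls over all genes became 97 without DN library 4, 446 without treated library 1 and 762 with library totals, where 641 rather than 103 were higher. None of the 10 genes was called in any of these 3 fits. By edgeR 0 of the 10 also had an unadjusted p under 0.05. DESeq2 called 0 with 0 unadjusted, and limma voom with quality weights called 0 with 1 unadjusted, Cxcl1 (log2 fold change 0.44, limma adjusted p = 0.147). For 0 of the 10 did the treated and DN libraries stand apart without overlap, in either direction, as they did for 0.770% of all genes upward and 1.03% downward. All 10 fitted log2 fold changes were at or above 0, from 0.00 (Cx3cl1) to 0.28 (Cxcl1), with a median of 0.12 against -0.01 over all genes tested. The signs of Ccl2, Cx3cl1 and Nfkb2 turned with single libraries left out, and that of Cx3cl1 also with limma voom. Scaling by library totals alone moved the median of all genes to 0.13 and that of the 10 genes to 0.24.

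For 7 of the 8 rising genes every treated library lay above every control, as for 11.5% of all genes, the exception being Cx3cl1. The 8 had been called against these same controls. Cxcl1 stood at 6.10, 10.8 and 14.5 CPM in Treat, treated library 1 being lowest, and the fitted ratio of Treat to DN was 1.21 with a 95% interval of 0.880 to 1.67. Ccl2 stood at 2.15, 3.96 and 7.04 CPM, with a wider spread than in DN (coefficient of variation 39.2% against 11.6%) and a ratio of 1.09 (0.718 to 1.65). Cxcl10 stood at 13.6, 20.2 and 25.3 CPM with a ratio of 1.13 (0.865 to 1.47). For all 3 of these chemokine genes treated and DN libraries overlapped.

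Icam1 in Treat stood at 24.6, 27.8 and 35 CPM, and its ratio to DN of 1.06 had an interval of 0.883 to 1.27. Relb stood at 8.09, 8.96 and 10.7 CPM, with all 6 treated libraries above the DN median but only 2 above the highest DN library (ratio 1.12, 0.900 to 1.39). Nfkb2 stood at 16.3, 18.6 and 23.9 CPM with a ratio of 1.04 (0.890 to 1.21). The lower ends of these intervals bound how far the genes could have fallen with TSK at this replicate spread.

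Csf1 in Treat ranged from 11.6 to 28.0 CPM (median 15.8), the highest value belonging to treated library 1, and the ratio to DN was 1.20 (0.939 to 1.54). Without that library and control libraries 4 and 5 the ratio was 1.07. Cx3cl1 ranged from 28.3 to 44.3 CPM (median 40.2) with a ratio of 1.0 (0.822 to 1.22). Nfkbia ran from 25.2 to 39.5 CPM and Tnfaip3 from 6.70 to 11.1 CPM in Treat, both overlapping DN, with ratios of 1.07 (0.926 to 1.25) and 1.09 (0.840 to 1.41). Treated library 1 was the highest treated library for Nfkbia and Csf1 and the lowest for Ccl2, Cxcl1, Tnfaip3 and Nfkb2.

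**Figure D4:**
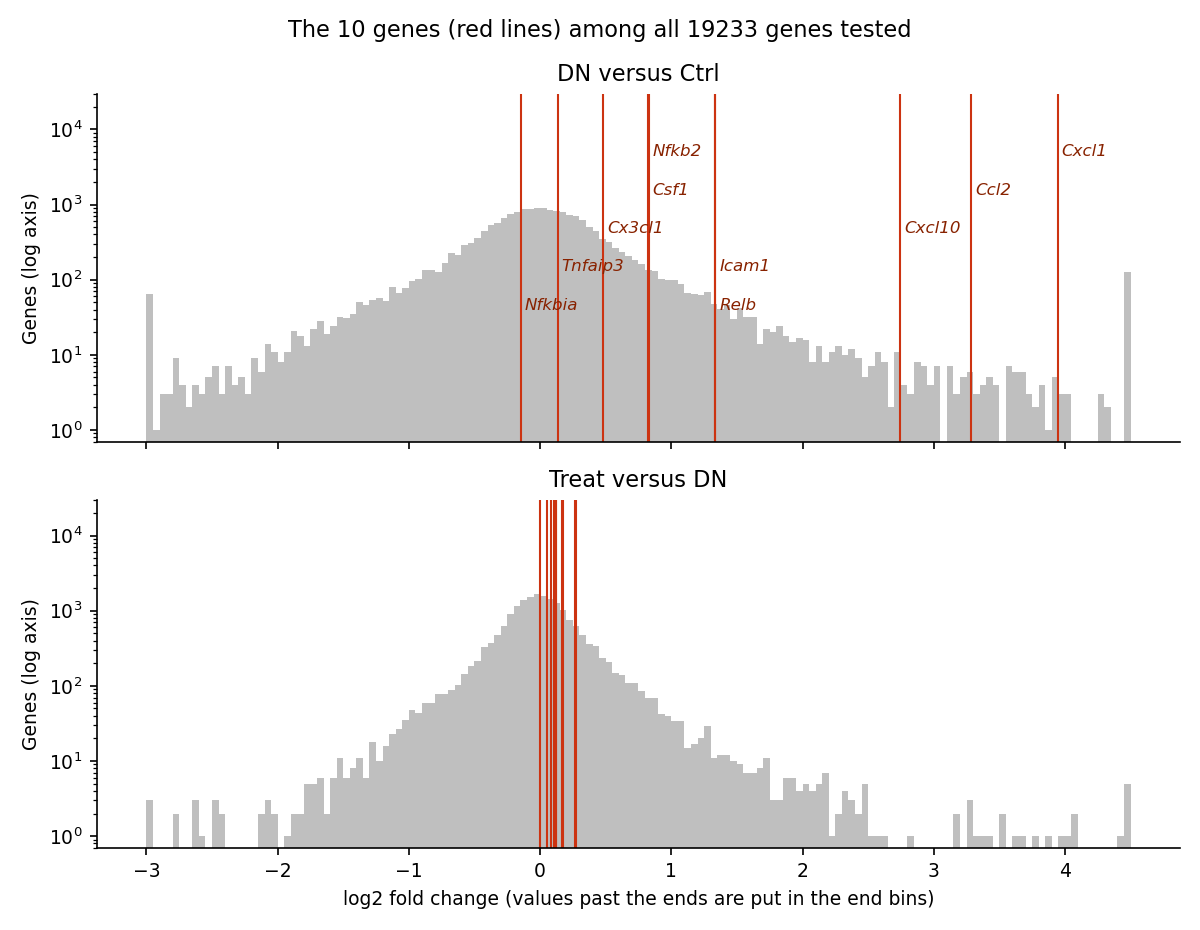
Histogram of log2 fold changes (x axis) of all genes tested, with the number of genes on a log axis, for DN versus Ctrl (top) and Treat versus DN (bottom); red lines mark the 10 genes. In the top panel Cxcl1, Ccl2 and Cxcl10 lie in the far right tail and Nfkbia and Tnfaip3 near the centre, and in the bottom panel all 10 lie between 0.00 and 0.28.

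The third comparison, Treat with Ctrl, addresses how treated animals differed from controls. It shares the control libraries with the first comparison, so that its calls are no separate evidence. Here too 8 of the 10 genes were higher, 0 lower and 2 not called, where 23.0% of all genes tested were called higher and 21.9% lower. The 7 whose treated libraries all lay above the controls compare with 11.5% of all genes. The log2 fold changes were 4.22 for Cxcl1, 3.41 for Ccl2, 2.92 for Cxcl10 and 0.48 for Cx3cl1, beside 3.94, 3.29, 2.75 and 0.48 in DN versus Ctrl. For Csf1, Icam1, Relb and Nfkb2 they were 1.09, 1.42, 1.5 and 0.88, beside 0.82, 1.33, 1.33 and 0.83. The edgeR adjusted p of these 8 ran from 4.93e-09 for Cxcl1 to 0.00784 for Cx3cl1. Nfkbia had a log2 fold change of -0.04 (adjusted p = 0.769), which became 0.07 under scaling by library totals, and Tnfaip3 one of 0.26 (adjusted p = 0.255). With limma voom Tnfaip3 had 0.33 (limma unadjusted p = 0.0368, adjusted p = 0.0667).

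From animal to animal within a group, pairs of the 10 genes had correlations of mixed sign. Over the 45 pairs of genes, the correlation of deviations from the group means in log2 CPM had a median of 0.02 across the 18 libraries, from -0.67 for Icam1 with Tnfaip3 to 0.65 for Ccl2 with Cxcl10. The points share library depth and scaling, and the values are a description. Without control libraries 4 and 5 and treated library 1 the median was 0.10, and 4 pairs rather than 1 had a correlation above 0.5. The group means were still those of all 18 libraries, so offsets between groups enter the values without these libraries. How far such offsets make up the shifts below was not tested. Among pairs with Ccl2, that with Csf1 then turned from -0.20 to 0.42, that with Cxcl1 went from 0.01 to -0.48, and that with Cxcl10 fell from 0.65 to 0.27. Cxcl1 with Icam1 went from 0.46 to 0.67, and Icam1 with Tnfaip3 was at -0.65. Relb and Nfkb2, partners in the alternative branch, had 0.46 with all libraries and 0.39 without those 3. Nfkbia with Tnfaip3 had -0.62 and -0.54.

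**Figure D5:**
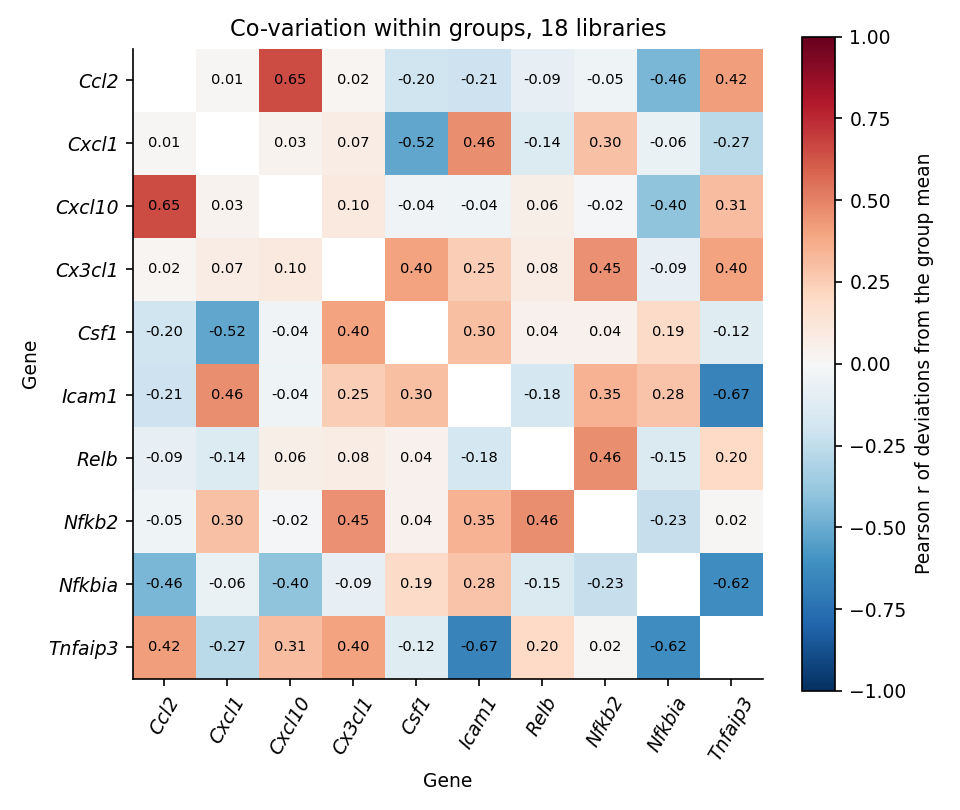
Pearson correlation, for each pair of the 10 genes (both axes), of deviations from the group mean in log2 CPM over 18 libraries; red is positive and blue negative. The pairs are of mixed sign, from -0.67 for Icam1 with Tnfaip3 to 0.65 for Ccl2 with Cxcl10.

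The spread between animals of a group differed by gene. In DN the coefficient of variation ran from 11.6% for Ccl2 to 29.4% for Tnfaip3, and in the controls from 6.06% for Nfkbia to 47.5% for Ccl2, which there rested on few counts. In Treat it ran from 11.1% for Relb to 39.2% for Ccl2. All 8 rising genes were still called against Ctrl, in DN and in Treat, without control libraries 4 and 5 and treated library 1, with 8.46-fold for Ccl2, 15.5-fold for Cxcl1 and 6.50-fold for Cxcl10 in DN. Cx3cl1 in DN was the nearest to the threshold there (1.40-fold, edgeR adjusted p = 0.0342). That is the highest adjusted p over its alternatives in DN versus Ctrl, the lowest being 0.00553 with DESeq2.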

How the data were processed

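The authors deposited unnormalised gene counts, 1 column for each library, per the file header, and the genome builds GRCm38 and mm10 are per the submitters' processing notes. Aligner, counter, annotation release and strandedness: not given in the sources used here. Reads lost or gained against a mouse reference could differ between genes. Per the labels' protocols, libraries were made with a SMARTER mRNA kit. Columns were matched to samples by library name, and groups come from titles.

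Counts were fitted with edgeR 4.0.16 in R 4.3.3: filterByExpr by group (19233 genes kept), TMM factors, 1 coefficient per group over 18 libraries, quasi-likelihood F-tests and Benjamini-Hochberg adjustment over all genes kept. Standard errors come from the F statistics, and 95% intervals from the test's t distribution. Log2 CPM used a prior count of 2. Log2 ratios of pairs of genes were chosen after the values were seen and are given without a test. The fit was tested on simulated data. Library totals were at least 22040987 counts. Counting error was largest for Ccl2 and Cxcl1 in the controls, with 2 to 25 counts per library. It also enters at moderate counts, such as Cxcl10 in controls (43 to 96) and Ccl2 in Treat (61 to 184).

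The genes, lists and tests were chosen with earlier results of these data known. Named were all 10 genes, whatever their result. The 9 pathway lists and 12 cell marker lists (192 symbols) were not looked up in the counts, since 0 of the 55335 identifiers matched the rat gene table. Only the 4 of these symbols that are among the 10 genes were measured. The tissue was not checked against its markers. Nor are genes of like pattern named. Alternatives were RLE factors, library totals, DESeq2 1.42.0, limma 3.58.1 voom with quality weights, 2 other filters, a replicate block, fits of only the 12 libraries compared, each library left out, and control libraries 4 and 5 with treated library 1 left out. Control library 5, left out in the last of these, did not stand apart by its mean correlation with its own group (0.969). Nothing but the design text says that libraries are separate animals.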

Additional observations from a re-analysis of the deposited data

Results flagged for a closer look

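Of 30 sets of 6 libraries (10 genes in 3 groups), 1 held a library far from the rest by the ratio of its gap to the range, where chance flags about 1 in 20. It was Relb in DN library 2, at 10.27 CPM beside 8.27 CPM in the next highest DN library. The same library was the highest DN library for Nfkb2 (22.2 CPM). Without DN library 2, Relb remained called in DN versus Ctrl.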

How the results depend on the processing

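The 27 alternatives were set with earlier results of these data known. In each of them 8 of the 10 genes were called higher and 0 lower against Ctrl, in DN and in Treat alike, and 0 either way in Treat versus DN, also with any 1 library left out. Of 810 gene values under alternatives, 796 kept direction and side of the threshold and 14 turned sign, all of genes not called. In Treat versus DN, Cx3cl1 turned to -0.017 with limma voom and ran from -0.049 to 0.097 with 1 library left out (below 0 without control library 2, DN library 1, 3, 4 or 5, or treated library 2, 3 or 6). Ccl2 ran from -0.068 (without treated library 6) to 0.26, and Nfkb2 from -0.0083 (without treated library 6; also below 0 without DN library 1) to 0.10. In Treat versus Ctrl, Nfkbia turned to 0.069 with library totals and ran from -0.11 to 0.018 (without treated library 4). The cause was not tested.

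The background moved more. Genes called in Treat versus DN numbered 268, but 762 with library totals (84.1% of them higher, against 38.4%), 841 with DESeq2, 739 with limma voom, 119 with no filter, 116 with only the 12 libraries compared, 571 without the 3 libraries together, and 97 to 446 with 1 library left out. It moved by over 1.5 times without control library 6, DN library 1, 2, 4 or 6, or treated library 1, 3 or 6. With library totals 64.3% of the calls of treated libraries against controls were higher, against 51.2%. Leaving out 1 library gave 5103 to 6936 calls for DN and 7909 to 8941 for Treat, both against Ctrl.

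No strong pairing by replicate number was seen: same-numbered libraries had correlations of deviations of -0.19 to 0.19. These were over 0.1 in 2 of 6 pairs for Treat and DN and in 0 of 6 for the other comparisons. Such correlations cannot exclude a weaker pairing. A library correlated best with its own number in 0 to 2 of 6 cases. With the replicate block 117 genes were called in Treat versus DN, 5713 and 8202 for DN and Treat against Ctrl, and it changed no call among the 10 genes. Control counts of 2 to 25 per library limit the precision of the folds of Ccl2 and Cxcl1.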
